A study of Homo sapiens with 8 samples.

Results

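Among the H3K4me3 regions of MM1S cells were 5733 of middle width whose strongly marked sequence was broken into separate inner segments. They were chosen by called width and by segment number in DMSO libraries. A merged region was taken if it lay on chromosomes 1 to 22 or X, was called in all 8 libraries, was of middle width in the 5 DMSO libraries, and held 2 or more inner segments in at least 3 of those 5. Middle width means a mean of 700 called bases or more, with an upper limit that took regions of 1998 bp and left out those of 1999.2 bp. These were 11.3% of the 50523 merged regions of the series, 41.8% of the 13729 called in all 8 libraries, and 51.8% of the 11067 of that width called in all 8. An inner segment is a block of over 1 bp listed inside a called region, and a gap is the sequence between adjacent inner segments. Since those values chose the regions, they are given below as a description, and tests were made on regions chosen without regard to treatment.

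H3K4me3, histone H3 trimethylated at lysine 4, is deposited by SET1 and MLL methyltransferase complexes and is found mainly on nucleosomes at the start sites of active and poised genes. At many active promoters the start site itself is depleted of nucleosomes, and the marked nucleosomes lie on either side of it, so that the signal along the DNA has a dip between a pair of peaks. KDM5 demethylases remove methyl groups from this residue, and KDM5-C70 is an inhibitor of that family.

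MM1S is an established human multiple myeloma cell line. The treated group was 3 libraries from cells given KDM5-C70 at 50 uM for 7 days, and the control group was 5 libraries from cells given the vehicle DMSO, for which no time is stated. All 8 came from chromatin precipitated with the same H3K4me3 antibody lot, and nothing in the labels says whether the libraries came from separate cultures, so the p-values measure only the spread between these libraries. The lists held 15323 to 32376 regions in DMSO and 17977 to 37948 in KDM5-C70 libraries, and their sequencing depth is unknown. DMSO 1, DMSO 2 and KDM5-C70 1 had the 3 shortest lists (15323 to 20998 regions) and are called the short lists, and the other 5 (28195 to 37948 regions) the long lists. In every list the shortest region and the shortest inner segment measured 146 bp, and regions called separately in 1 list were at least 585 bp apart. The shortest gap in a list lay between 43 and 75 bp. Median fold enrichment, as deposited by the authors, was 2.83 to 3.10 in DMSO lists and 2.39 to 2.67 in KDM5-C70 lists. Over the 5733 regions it was 2.91 to 3.18 and 2.46 to 2.70, so it moved with the treatment in both, and its part in the results that follow was not tested. Positions are given on GRCh37, and neither the sequence of that build nor its gene starts were used here, so regions are named by position.

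At the limits of the rule, the regions of lowest width inside it had means of 702 bp (chromosome 7, 150779707 to 150780861) and 706 bp (chromosome 22, 31476698 to 31478062). Those just outside had 698 bp (chromosome 16, 3053721 to 3055276, and chromosome 1, 27998295 to 27999763). At the upper limit, regions on chromosome 12 (57027930 to 57030586) and chromosome 11 (63534871 to 63537247) had 1998 bp each and were taken. Regions on chromosome 16 (1662413 to 1665334) and chromosome 18 (9913265 to 9916970) had 1999.2 bp each and were not. There were 1740 regions split in exactly 3 DMSO libraries, just inside the rule, and 1467 of the same width split in 2, just outside.

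The usual form was a pair of segments around 1 gap. In DMSO 1 to 5, the share of the 5733 regions with exactly 2 segments was 66.2, 51.4, 72.5, 75.4 and 76.8%, and in KDM5-C70 1 to 3 it was 49.2, 57.4 and 53.8%. Regions with 3 segments made up 6.30 to 14.8% in DMSO libraries and 10.5, 24.5 and 26.5% in KDM5-C70 1 to 3. Those with 4 made up 0.297 to 1.53% and 0.959, 4.64 and 6.82% in the same order. Among the long lists, KDM5-C70 2 and 3 thus held regions cut into 3 or 4 segments more often than DMSO 3, 4 and 5, while KDM5-C70 1 lay between DMSO 1 and DMSO 2. A single segment was found in 40.1% of regions in DMSO 2 and 37.2% in KDM5-C70 1, against 8.09 to 18.6% in the other 6 libraries. The mean number of segments was 1.96 ± 0.191 (SD, n = 5) with DMSO and 2.08 ± 0.323 (SD, n = 3) with KDM5-C70. No library had more than 6 segments in a region.

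**Figure D1:**
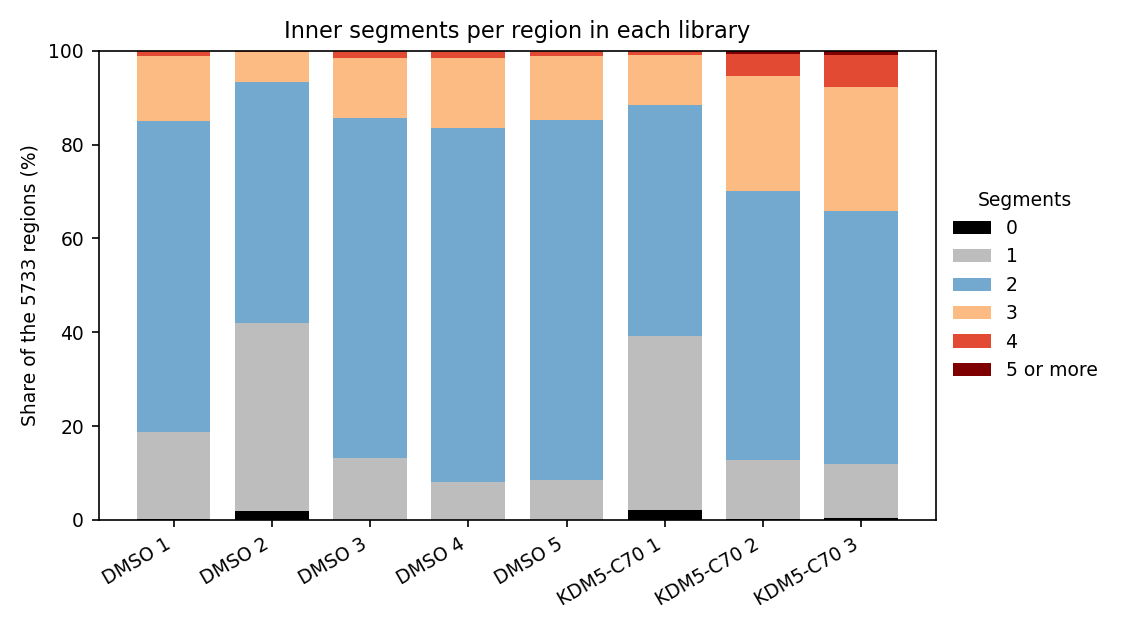
Share of the 5733 regions (vertical axis, %) with 0, 1, 2, 3, 4 or 5 or more inner segments in each of the 8 libraries (horizontal axis), as stacked bars. DMSO 2 and KDM5-C70 1 have the most regions with 1 segment, at 40.1 and 37.2%, and KDM5-C70 2 and 3 the most with 3, at 24.5 and 26.5%.

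Each DMSO library helped to choose the regions by its own split. The share of the 5733 regions that were split was 81.2, 58.0, 86.8, 91.9 and 91.5% in DMSO 1 to 5 and 60.7, 87.2 and 88.0% in KDM5-C70 1 to 3. To read each DMSO library on regions it had not helped to choose, the choice was repeated with the other 4 (split in at least 3 of those 4, 4481 to 4874 regions), and each KDM5-C70 library was averaged over the 5 choices. The split share was then 77.7, 53.9, 83.9, 89.6 and 88.9% for DMSO 1 to 5, and 66.1, 89.5 and 89.7% for KDM5-C70 1 to 3. The difference of KDM5-C70 minus DMSO changed from -3.25 to 2.93 percentage points, and in both readings the groups overlapped. The repeated choice is also stricter, with 3 of 4 libraries in place of 3 of 5, so the effect of leaving out the library read and that of the stricter rule cannot be told apart. Of the 2283 regions split in all 5 DMSO libraries, 1762 were split in all 3 KDM5-C70 libraries too and 15 in none of them. Of the 2042 regions of that width called in all 8 libraries and split in no DMSO library, 75 were split in all 3 KDM5-C70 libraries.

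Over 11114 regions called in all 8 libraries and within the same limits of width by the mean over all 8, a set that uses neither treatment nor segments, the split share was 49.6 ± 7.88% (SD, n = 5) in DMSO libraries against 58.7 ± 13.6% (SD, n = 3) in KDM5-C70 libraries. This difference of 9.17 percentage points was within the spread of the libraries (2-sided exact permutation p = 0.214, and 0.375 adjusted over the 7 measures of this set). Leaving out KDM5-C70 1 made it 17.1 points, leaving out KDM5-C70 3 made it 3.94, and it was 5.80 without DMSO 2. In the long lists the 2 KDM5-C70 libraries had a mean of 66.4% and the 3 DMSO libraries 53.4%. In the short lists KDM5-C70 1 had 43.3% and the 2 DMSO libraries a mean of 43.8%.

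The median gap was wider in every KDM5-C70 library than in any DMSO library, as fold enrichment was lower in every KDM5-C70 library, and the part of the latter was not tested. Over the 5733 regions, the largest gap of each split region had a median of 204, 226, 190, 207 and 199 bp in DMSO 1 to 5 and of 263, 286 and 304 bp in KDM5-C70 1 to 3. The groups did not overlap, with 284 ± 20.6 bp (SD, n = 3) against 205 ± 13.3 bp (SD, n = 5). Gaps under 150 bp, about the length of DNA on 1 nucleosome or less, made up 22.5 to 31.0% of largest gaps in DMSO libraries and 9.12 to 15.8% in KDM5-C70 libraries. Gaps of 500 bp or more made up 4.66 to 8.77% and 14.2 to 20.6%. Neither share overlapped between the groups. Nearly all largest gaps lay inside 1 called region, with 96.8 to 98.3% of them in DMSO and 94.9 to 96.1% in KDM5-C70 libraries. The sequence between those segments was thus part of the called region. Whether it would have been called by itself cannot be told, since the settings of the calling are not given.

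The same was seen when only regions with a gap in every library were compared. In the 1762 regions split in all 8 libraries, the median largest gap was 227, 260, 193, 218 and 213 bp in DMSO 1 to 5, and 305, 298 and 327 bp in KDM5-C70 1 to 3. Gaps were larger in wider regions in both groups. Width here is the mean of DMSO called bases, which chose the regions and includes any gap inside a called region. A larger gap in wider regions is thus in part built in. In each of 4 classes of width every KDM5-C70 median lay above all DMSO medians. In the 464 regions of 700 to under 1000 bp the median gap was 157 ± 6.72 bp (SD, n = 5) in DMSO libraries against 204 ± 14.3 bp (SD, n = 3) in KDM5-C70 libraries. In the 1847 regions of 1600 bp or more it was 257 ± 15.4 bp and 369 ± 38.1 bp in the same order. The share of all regions of that width called in all 8 libraries that met the rule rose from 16.2% in the first class to 88.4% in the last.

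**Figure D2:**
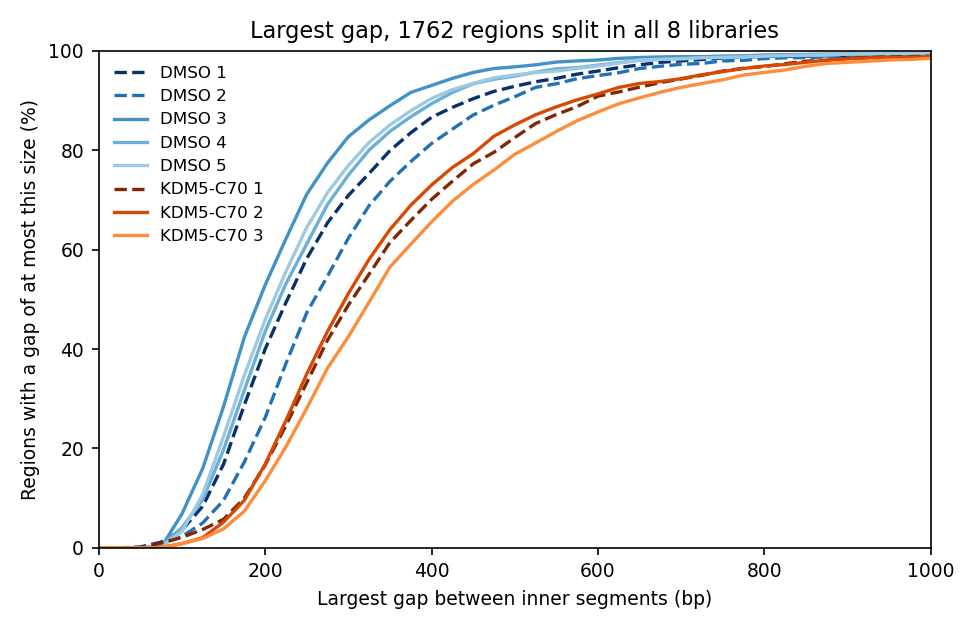
Cumulative share (vertical axis, %) of the 1762 regions split in all 8 libraries whose largest gap is at most the size on the horizontal axis (bp), 1 line per library, blue for DMSO and orange for KDM5-C70, dashed for the short lists. All 3 KDM5-C70 lines lie to the right of the 5 DMSO lines around their medians of 298 to 327 bp and 193 to 260 bp.

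In the 11114 regions chosen without regard to treatment, the median of all gaps was 164, 188, 178, 181 and 180 bp in DMSO 1 to 5 and 195, 214 and 216 bp in KDM5-C70 1 to 3. The difference of 30.1 bp had a 2-sided exact permutation p of 0.0357, the smallest that 56 splits of 8 libraries allow, and 0.25 after adjustment over the 7 measures. It was present in both sets of lists, with 195 bp against a mean of 176 bp in the short lists, and a mean of 215 bp against 180 bp in the long lists. In the same regions the median length of an inner segment was 612 ± 155 bp (SD, n = 5) in DMSO libraries against 466 ± 87.7 bp (SD, n = 3) in KDM5-C70 libraries. That difference was within the spread (exact permutation p = 0.214, adjusted 0.375). Within the short lists it was 375 bp against a mean of 450 bp, and within the long lists a mean of 511 bp against 721 bp.

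To compare 1 gap with itself across libraries, the longest stretch lying in a gap in the highest number of libraries was taken as the shared gap. It was open in all 8 libraries in 1501 of the 5733 regions. In these the shared gap had a median width of 225, 268, 190, 215 and 207 bp in DMSO 1 to 5 and 312, 284 and 312 bp in KDM5-C70 1 to 3. Every KDM5-C70 value lay above every DMSO value. Averaged by group within each region, the gap was wider with KDM5-C70 in 1450 of the 1501 regions (96.6%), by a median of 70.9 bp. Over all 2019 regions of any width with such a gap, it was wider in 1939 (96.0%), by a median of 78.5 bp. The widening is thus not particular to the middle-width regions. In the 1501, both sets of lists showed it, with a median of 50.5 bp in the short lists and 80 bp in the long lists. Both edges of the gap were affected, with the left edge farther from the centre in 1415 regions (94.3%) and the right edge in 1378 (91.8%), by a median of 32.5 bp on each side. Over all 2019 regions these shares were 94.3 and 91.7%. In 1301 regions (86.7%) both edges lay farther out. The centre is that of the stretch open in all 8 libraries, so it is placed by the narrowest gaps, and a wider gap tends to extend past it on both sides. How far the left and the right edge moved in 1 region were nearly unrelated (Spearman's rho 0.0442 across the 1501 regions, which share libraries and are not independent).

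The widening was larger in base pairs for wide gaps and somewhat smaller on the log2 scale. For 63 regions with a mean gap under 150 bp over the 8 libraries, the median difference was 42.7 bp, or 0.45 on the log2 scale. For 297 regions with a mean gap of 150 to 200 bp over the 8 libraries, the median difference was 52.9 bp, or 0.44 on the log2 scale. For 609 regions with a mean gap of 200 to 300 bp it was 69.3 bp, or 0.41 on the log2 scale. For 443 regions with a mean gap of 300 to 500 bp it was 95.2 bp, or 0.38 on the log2 scale. The 89 regions with a mean gap of 500 bp or more had 150 bp, or 0.35 on the log2 scale. The means that set these classes include the KDM5-C70 gaps compared here.

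All 3 KDM5-C70 gaps were wider than all 5 DMSO gaps in 448 of the 1501 regions (29.8%), and all 3 were narrower in 0. Over all 2019 regions of any width with a shared gap open in all 8 libraries the figure was 30.5%, and 0% were narrower in all 3. It was 167 of the 518 that did not meet the rule (32.2%). The share in the middle-width regions was thus near that of all regions measured the same way. Over 1386 regions with such a gap in the set chosen without regard to treatment, the median width was 218 ± 30.8 bp (SD, n = 5) in DMSO libraries against 299 ± 16.9 bp (SD, n = 3) in KDM5-C70 libraries. The difference of 81 bp had an exact permutation p of 0.0357, the smallest possible, and 0.143 adjusted over the 4 measures of shared gaps, all of them chosen after the data were examined.

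Segments next to the gap and the outer ends of the region behaved differently from the gap. In the 1501 regions the left segment had a median of 483, 395, 730, 647 and 678 bp in DMSO 1 to 5, and 369, 611 and 565 bp in KDM5-C70 1 to 3. The right segment had 374 to 701 bp and 354 to 604 bp. Both groups had their shortest segments in the short lists, and within each set of lists the KDM5-C70 segments were the shorter ones. On the left the median difference was 43.5 bp in the short lists and 50 bp in the long lists. The whole called span was 1268 to 1801 bp in DMSO libraries and 1398, 1970 and 2019 bp in KDM5-C70 1 to 3, so KDM5-C70 2 and 3 had the widest spans beside shorter segments. Over the 1386 regions chosen without regard to treatment, neither segment length differed beyond the spread (exact permutation p = 0.536 on the left and 0.571 on the right), nor did the span (p = 0.393). The differences of KDM5-C70 minus DMSO were -64.8, -56.0 and 195 bp. That of the span was 390 bp without KDM5-C70 1, and 110, 105 and 82.7 bp without DMSO 2, KDM5-C70 2 and KDM5-C70 3.

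**Figure D3:**
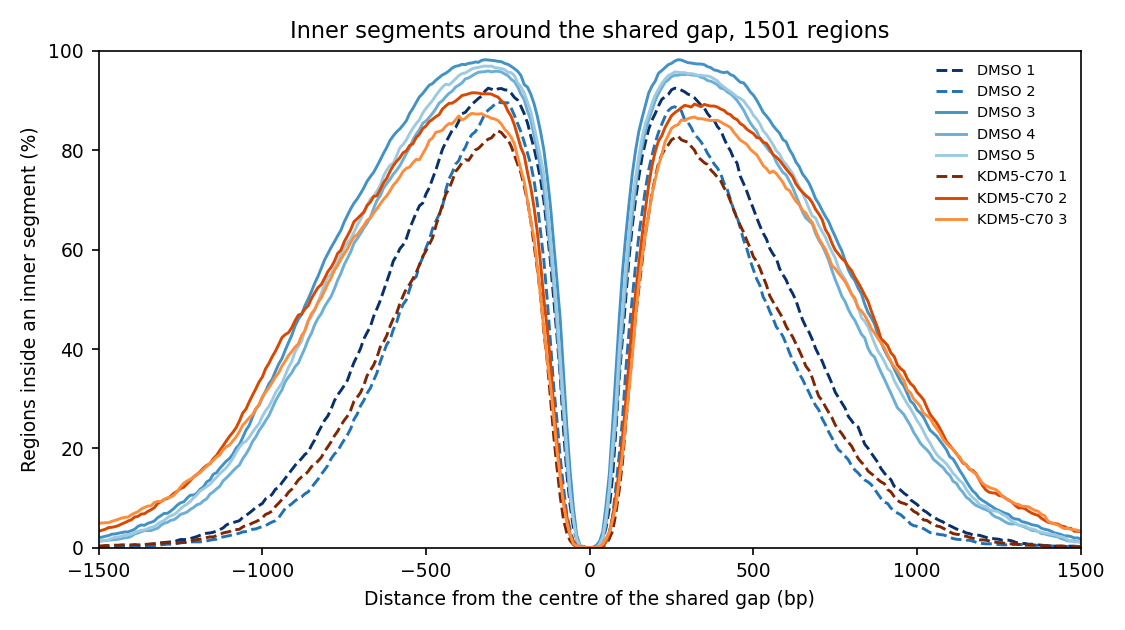
Share of the 1501 regions lying inside an inner segment (vertical axis, %) against the distance in bp from the centre of the shared gap (horizontal axis), 1 line per library, dashed for the short lists. At 100 bp on either side 16.1 to 22.1% of regions are inside a segment in KDM5-C70 libraries and 25.6 to 55.4% in DMSO libraries, while at 1000 bp the long lists lie above the short ones in both groups.

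The profile around the gap showed where the groups differed. At 150 bp to the left of the centre, 63.6 to 83.7% of regions were inside an inner segment in DMSO libraries and 50.5 to 57.1% in KDM5-C70 libraries. At 500 bp to the left the groups overlapped, with 60.4 to 92.3% and 59.8 to 84.9%. At 1000 bp to the left, DMSO 3, 4 and 5 had 24.5 to 30.2% and KDM5-C70 2 and 3 had 34.4 and 30.4%, whereas the short lists had 4.26 to 8.93%. Inner segments covered 76.0 ± 6.19% (SD, n = 5) of the called bases of the 5733 regions in DMSO libraries and 62.7 ± 4.48% (SD, n = 3) in KDM5-C70 libraries. The groups met, with 67.2% in both KDM5-C70 2 and DMSO 2.

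Largest gaps lay most often in the middle part of the called span, and the left and right sides were alike. Each gap needs a segment of at least 146 bp on both sides, so its centre cannot lie near an end of the span. A high share in the middle part is thus in part built in, and it was not compared with random placement. Left and right follow the coordinates of the build and gene strand was not used, so a preference relative to gene direction would not show here. The median relative position of the largest gap along the called span was between 0.498 and 0.511 in the 8 libraries. When the span was cut into 3 equal parts, the middle part held 53.0 to 66.1% of largest gaps in DMSO and 59.2 to 65.5% in KDM5-C70 libraries. The 2 outer parts held like shares, with 17.0 to 22.8% on the left and 16.9 to 24.3% on the right in DMSO libraries. The left segment was the longer one in 49.2 to 51.5% of regions with exactly 2 segments, over all 8 libraries. One segment was usually much longer than the other: the shorter had a median of 46.6 to 53.1% of the longer one's length. In the set chosen without regard to treatment, the middle part held 55.4 ± 7.01% (SD, n = 5) of largest gaps in DMSO libraries, against 57.7 ± 4.93% (SD, n = 3) in KDM5-C70 libraries (exact permutation p = 0.607). In regions with 3 or more segments, adjacent gap centres lay a median of 464 to 661 bp apart.

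Where a shared gap site could be defined, it recurred between libraries. Of the split regions with a gap shared by at least 3 of the other 4 DMSO libraries, 90.3 to 97.5% had a gap on that site in a DMSO library. Read against the same kind of site, 86.9% did in KDM5-C70 1, 94.5% in KDM5-C70 2 and 92.3% in KDM5-C70 3. Such a site existed for 2770 of the 3328 split regions in DMSO 2 and 3530 of the 5244 in DMSO 5. Any overlap of a gap with the site counted, and the overlap of randomly placed gaps was not computed. Over the 1762 regions split in all 8 libraries, the SD of the centre of the largest gap across the libraries had a median of 39.8 bp and was under 50 bp in 970 regions (55.1%). In 26.4% it was over 200 bp.

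The steadiest gap centres were found in regions on chromosomes 21, 7, 8 and 3. The steadiest, on chromosome 21 in the region from 33764362 to 33766809, had a centre with an SD of 3.29 bp. Its gap was 156, 197, 154, 155 and 147 bp in DMSO 1 to 5 and 209, 191 and 216 bp in KDM5-C70 1 to 3. KDM5-C70 2 lay just under DMSO 2 there, and above the other 4 DMSO libraries. In each library this region held exactly 2 segments. A further region of chromosome 21, from 34098739 to 34101336, had 151 to 203 bp with DMSO and 215 to 244 bp with KDM5-C70, without overlap. On chromosome 3, from 48480885 to 48482657, the gap measured 188 to 225 bp and 219 to 259 bp, with overlap. On chromosome 7, from 150724856 to 150726370, the gap measured 155 to 255 bp and 250 to 315 bp, again with overlap. On chromosome 8, from 30890341 to 30892480, it was 221 to 286 bp with DMSO and 223 to 367 bp with KDM5-C70. None of the 5 passed the limma test of gap width given next.

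Gap width was then tested region by region with limma on log2 width over the 2019 regions with a shared gap open in all 8 libraries, a test chosen after the data were examined. At a Benjamini-Hochberg adjusted p under 0.05, the gap was wider with KDM5-C70 in 123 regions (6.09%) and narrower in 0 (0%), with 2 narrower at an unadjusted p under 0.05. Of the 1501 middle-width split regions, 78 were wider (5.20%), and of the other 518 regions 45 were (8.69%). The median log2 change was 0.41 over the 1501 and 0.43 over all 2019. The count rested on single libraries: it was 543 without DMSO 2, 115 without KDM5-C70 1 (2 of them narrower), 62 without DMSO 1, 54 without KDM5-C70 2, 27 without KDM5-C70 3, 23 without DMSO 4, 20 without DMSO 3 and 19 without DMSO 5. With each library centred on its median gap, which moved the median log2 change to -0.03, 11 regions were wider and 0 narrower, 5 of the 11 among the 1501. With the replicate number as a block the count was 0.

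The 8 regions named next had the smallest p among those of the 1501 middle-width split regions with all 3 KDM5-C70 gaps wider than all 5 DMSO gaps, and were chosen after their values were seen. On chromosome 17, in the region from 27070199 to 27072758, the gap was 160, 154, 156, 135 and 164 bp in DMSO 1 to 5 and 413, 626 and 500 bp in KDM5-C70 1 to 3 (log2 change 1.72, SE 0.16, limma adjusted p = 0.0018). Every treated library lay far above every control there. In KDM5-C70 2 and 3 the right segment began farther out, at 27071492 and 27071379, against 27071055 to 27071082 in DMSO libraries. In KDM5-C70 1 the left segment ended earlier, at 27070686 against 27070909 to 27070921.

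On chromosome 6, in the region from 41887459 to 41890659, the gap was 134 to 195 bp with DMSO and 516 to 676 bp with KDM5-C70 (log2 change 1.81, SE 0.17, limma adjusted p = 0.0018). Its right edge moved out by 359 bp and its left edge by 58.4 bp, as differences of group means. The region on chromosome 1 from 47902334 to 47904357 had the narrowest gap of the 8 in DMSO libraries, with 69, 95, 101, 135 and 118 bp in DMSO 1 to 5, and 452, 413 and 438 bp in KDM5-C70 1 to 3 (log2 change 2.10, SE 0.22, limma adjusted p = 0.00257). There the left edge moved by 312 bp and the right edge by 18.5 bp. The 3 treated values were close to each other, at 434 ± 19.8 bp (SD, n = 3).

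The gap on chromosome 2 in the region from 63814834 to 63817234 was 200 to 301 bp with DMSO and 589, 611 and 623 bp in KDM5-C70 1 to 3 (log2 change 1.47, SE 0.16, limma adjusted p = 0.00304). Its left edge moved by 335 bp and its right edge by 50.1 bp. A further region of chromosome 2, from 110369911 to 110372675, had 153 to 230 bp and 485 to 599 bp (limma adjusted p = 0.00314). On chromosome 7, from 92860500 to 92862498, the gap was 149 to 276 bp and 517 to 727 bp (log2 change 1.65, limma adjusted p = 0.00645). In both the left edge moved by over 300 bp and the right edge by 14.1 and 51.8 bp. In these the widening was mostly on 1 side of the gap, and in 5 of the 8 the left edge moved more than the right.

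The region on chromosome 16 from 30428714 to 30430563 had 161 to 229 bp with DMSO and 358 to 460 bp with KDM5-C70 (log2 change 1.10, limma adjusted p = 0.0102). The region on chromosome 18 from 77438306 to 77440808 had 200 to 279 bp and 488 to 802 bp (log2 change 1.30, limma adjusted p = 0.0199), and its adjusted p rose to 0.0565 without DMSO 3 and 0.0535 without DMSO 4. With centring, those on chromosomes 17, 6, 1, 7 and the first on chromosome 2 passed, and those on chromosomes 16 and 18 and the second on chromosome 2 did not (limma adjusted p = 0.267, 0.173 and 0.101). None of the 8 passed with the replicate number as a block (limma adjusted p = 0.111 to 0.238).

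**Figure D4:**
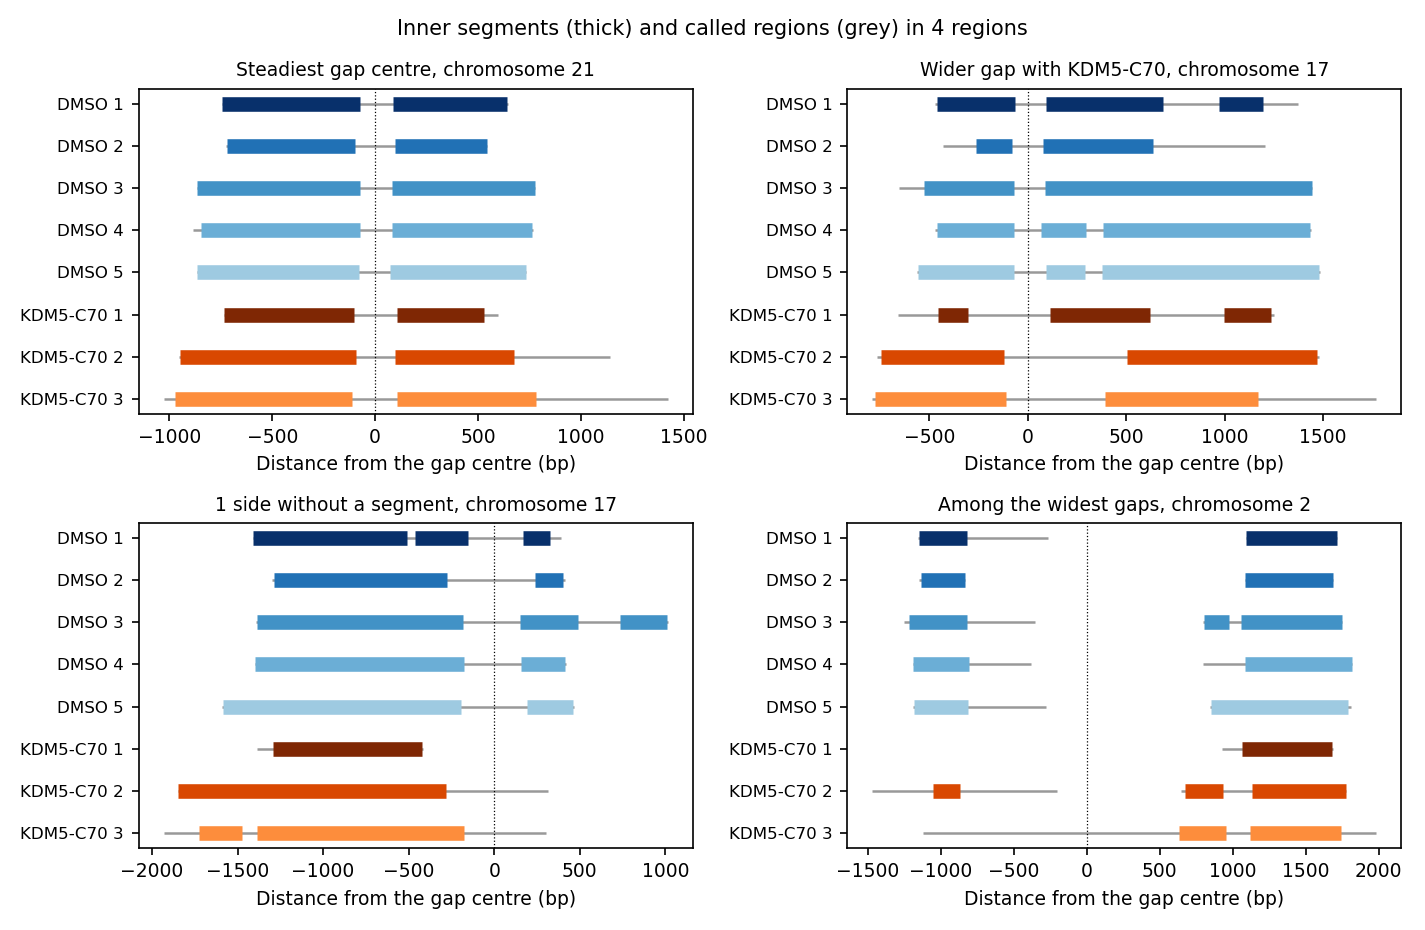
Inner segments (thick bars, blue for DMSO and orange for KDM5-C70) and called regions (grey lines) of the 8 libraries (vertical axis) against the distance in bp from the gap centre (horizontal axis), for the regions at chromosome 21 from 33764362, chromosome 17 from 27070199, chromosome 17 from 61918515 and chromosome 2 from 3380916. The gap on chromosome 17 from 27070199 is 135 to 164 bp with DMSO and 413 to 626 bp with KDM5-C70, and at chromosome 17 from 61918515 no KDM5-C70 library has a segment to the right of it.

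A gap can disappear in 2 ways, by being filled with strongly marked sequence or by losing the segment on 1 side. A gap site shared by at least 3 DMSO libraries could be defined in 5298 of the 5733 regions, with a median width of 139 bp, and each library was read at that site. A segment was counted on the side of the site's middle where its own middle lay, so a segment inside the site can count as a side. In DMSO 1 to 5 the site was open with segments on both sides in 79.4, 54.7, 87.0, 92.5 and 92.4% of regions, and in KDM5-C70 1 to 3 in 53.6, 82.9 and 81.1%. It was filled, meaning at least 50% covered by inner segments, in 1.98, 1.94, 12.9, 5.23 and 6.34% in DMSO 1 to 5 and in 1.79, 3.66 and 3.87% in KDM5-C70 1 to 3. Segments lay on 1 side only in 18.5, 41.7, 0.151, 2.21 and 1.23% in DMSO 1 to 5 and in 42.6, 13.3 and 14.6% in KDM5-C70 1 to 3. Loss of a side was about equally frequent on the left and the right, with 1115 and 1140 regions in KDM5-C70 1.

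Filled gaps were found mostly in the long DMSO lists. DMSO 3 had 683 regions with a filled site, and in 331 of these the site was open in all 3 KDM5-C70 libraries. Over all 5298 sites the open share was 53.6, 82.9 and 81.1% in KDM5-C70 1 to 3. The share of all sites open in all 3 was not computed, so nothing is read from the 331. Within the long lists KDM5-C70 2 and 3 had fewer filled sites than DMSO 3, 4 and 5 and more sites with a segment on 1 side only. Within the short lists KDM5-C70 1 was close to DMSO 2 in all of these shares. Of the 2051 sites open in all 5 DMSO libraries, 1492 (72.7%) were open in all 3 KDM5-C70 libraries, 0 were filled in all 3, and 26 had a segment on 1 side only, or no segment, in all 3. In 30 the site was filled in at least 1 KDM5-C70 library. These sites were picked as open in DMSO libraries, so no direction can be read from the counts.

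**Figure D5:**
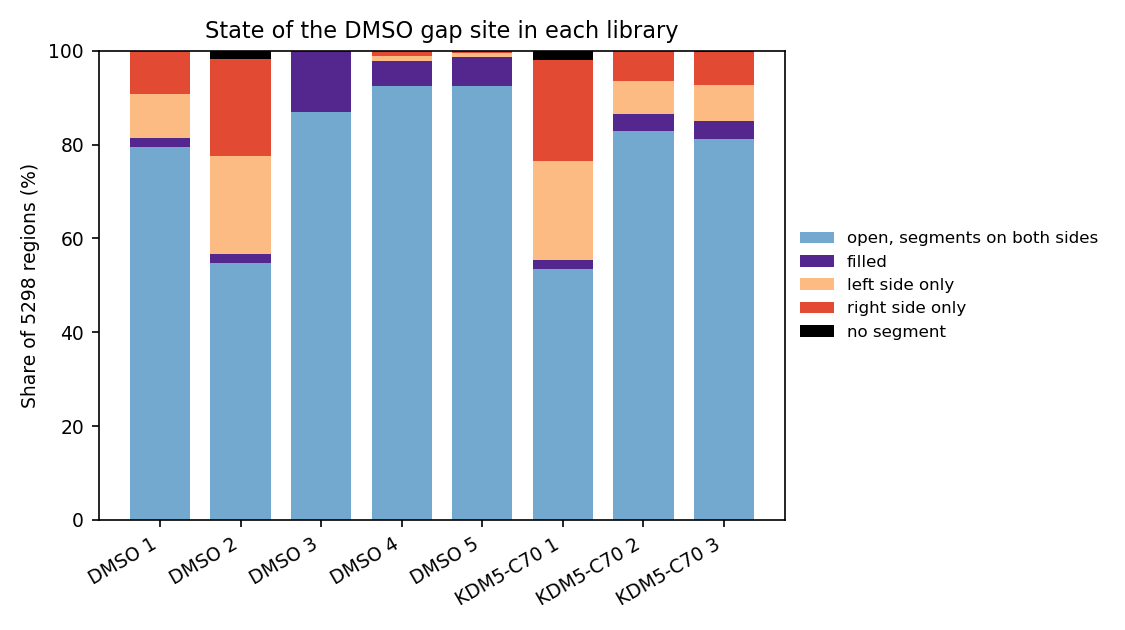
Share of 5298 regions (vertical axis, %) whose DMSO gap site is open with segments on both sides, filled, flanked on the left only, flanked on the right only, or in a region with no segment, in each library (horizontal axis), as stacked bars. Filled sites reach 12.9% in DMSO 3 and at most 3.87% in the KDM5-C70 libraries.

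Over regions chosen without regard to treatment (6338 regions split in at least 4 of the 8 libraries, with the gap site taken from all 8), the site was filled in 12.8 ± 7.88% (SD, n = 5) in DMSO libraries against 4.28 ± 1.28% (SD, n = 3) in KDM5-C70 libraries. The difference of -8.51 percentage points did not pass (2-sided exact permutation p = 0.0714, adjusted 0.25). With gaps under 200 bp joined it was -15.3 points (exact permutation p = 0.0357, adjusted 0.125). KDM5-C70 1 had 2.86% against a mean of 5.35% in the 2 short DMSO lists, and KDM5-C70 2 and 3 a mean of 4.99% against 17.8% in the 3 long DMSO lists. DMSO libraries had a segment on 1 side only in 15.1 ± 18.1% (SD, n = 5) and KDM5-C70 libraries in 21.9 ± 17.8% (SD, n = 3), and no segment in 0.423 ± 0.842% and 0.841 ± 1.11% (exact permutation p = 0.607 and 0.286).

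The 6 widest regions open in all 5 DMSO libraries and lacking a side in all 3 KDM5-C70 libraries lay on chromosomes 17, 12, 6, 14, 1 and 9. The one on chromosome 17, from 61918515 to 61921458, had its DMSO gap site at 61920294 to 61920597. The largest gap was 323, 517, 333, 332 and 386 bp in DMSO 1 to 5. To its right each DMSO library had a segment, of 155, 161, 338, 257 and 267 bp for the nearest one in DMSO 1 to 5, and no KDM5-C70 library had one. The short right segments in DMSO 1 and 2 lay close to the 146 bp floor. The left side was kept in all 3, with longest segments of 871, 1570 and 1208 bp in KDM5-C70 1 to 3.

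On chromosome 12, the region from 68041887 to 68044452 kept the right side in all 3 KDM5-C70 libraries, with longest segments of 1223 to 1490 bp against 1315 to 1542 bp in DMSO libraries. On chromosome 6, from 128839733 to 128842224, the left side was kept. That region had a smaller largest gap in KDM5-C70 libraries (205, 110 and 91 bp) than in DMSO libraries (253 to 312 bp), and those smaller gaps lay outside the DMSO gap site. On chromosome 14, from 73358408 to 73361678, the right side was kept, and the longest segment was 549, 629 and 181 bp in KDM5-C70 1 to 3 against 356 to 979 bp with DMSO. Regions on chromosome 1 (87793280 to 87796411) and chromosome 9 (79791835 to 79794415) completed the 6. The one on chromosome 9 kept the right side in all 3 KDM5-C70 libraries. In the one on chromosome 1 the libraries differed: KDM5-C70 1 kept the right side, and KDM5-C70 2 and 3 kept the left. That region had 1414, 1066 and 440 called bases in KDM5-C70 1 to 3 and 1359 to 2740 with DMSO.

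The 5 widest DMSO gap sites measured 1510 to 1911 bp. The widest, on chromosome 6 in the region from 69282676 to 69286622, was open in 3 DMSO libraries and in KDM5-C70 2 and 3. In KDM5-C70 2 the segment counted as its right side lay inside the site. On chromosome 1, from 1606747 to 1610463, the site was 1806 bp, with largest gaps of 1849 to 2235 bp in the 4 DMSO libraries that were split. The largest gaps of 876 and 499 bp in KDM5-C70 2 and 3 are other gaps. That of KDM5-C70 2 lay inside the site, next to segments that reach into it, and that of KDM5-C70 3 lay to the right of it. On chromosome 6, from 28908877 to 28912254, it was 1796 bp. The region on chromosome 2 from 3380916 to 3384368 was split in all 5 DMSO libraries with gaps of 1622 to 1921 bp, and in KDM5-C70 2 with 1542 bp. KDM5-C70 1 and 3 had no segment to the left of the site there, and the only gap in KDM5-C70 3, of 165 bp, lay to the right of it. On chromosome 13, from 37572422 to 37575858, the gaps were 1535 to 1646 bp with DMSO and 1667 bp in KDM5-C70 2. KDM5-C70 1 and 3 had no segment to the right of the site there. Their largest gaps, of 138 and 616 bp, are other gaps: the first lay to the left of the site, and the second ended at a segment inside it.

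Of the 4 regions with the most segments, the one on chromosome 2 from 148601113 to 148603673 had 3 or 4 in every library, with largest gaps of 217 to 336 bp in DMSO and 364, 473 and 767 bp in KDM5-C70 1 to 3, not all at 1 site (SD of the centre 503 bp). On chromosome 10, from 131908168 to 131910519, there were 2 to 4 segments, with largest gaps of 185, 485, 161, 129 and 190 bp in DMSO 1 to 5 and 512, 502 and 610 bp in KDM5-C70 1 to 3. These too were not all at 1 site (SD of the centre 177 bp). The region on chromosome 18 from 107829 to 112014 had 5, 6 and 5 segments in DMSO 1, DMSO 2 and KDM5-C70 1, and 2 to 4 in the long lists. On chromosome 1, from 24645912 to 24649782, there were 1 to 5 segments. The largest gap did not overlap between the groups in the first and second of these. Neither passed the limma test of gap width, which reads the shared gap and not the largest one (adjusted p = 0.131 and 0.162).

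Single regions did not differ beyond the adjusted threshold in the length of the longest segment or in called bases. In limma over 12816 regions with an inner segment in all 8 libraries, 0 had a longer and 0 a shorter longest segment at an adjusted p under 0.05 (0% of those tested). At an unadjusted p under 0.05 there were 833, of which 6 were longer, and among the 5519 middle-width split regions tested 5 were longer and 282 shorter. The longest segment was shorter in all 3 KDM5-C70 libraries than in all 5 DMSO libraries in 206 of the 5519 (3.73%), beside 4.29% of all 12816, and longer in 4 (0.0725%), beside 0.0546%. Limma on called bases over 13729 regions called 0 wider and 0 narrower (0%), with 242 at an unadjusted p under 0.05. Of the 5733 regions, 55 had more called bases in all 3 KDM5-C70 libraries (0.959%, beside 0.954% of all 13729) and 19 fewer (0.331%, beside 0.605%). The number of segments was higher in all 3 in 44 regions (0.767%, beside 1.01%) and lower in 20 (0.349%, beside 0.262%). The rule used the DMSO values of these last measures, and nothing is read from their counts.

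Gap size differed between classes of width, in part by construction, since called width includes any gap inside a called region. Among broader regions called in all 8 libraries (1188 with a DMSO mean above the limit), the median largest gap was 306 to 387 bp in DMSO and 469 to 561 bp in KDM5-C70 libraries, also without overlap. In the 1474 narrower ones (below 700 bp) it was 91 to 130 bp and 120 to 156 bp, and in the 5334 of middle width that were split in fewer than 3 DMSO libraries 109 to 182 bp and 135 to 185 bp, with overlap in both. The share of regions of middle width that met the rule was 47.1% on chromosome 3, the lowest, and 59.9% on chromosome 22, the highest of 23 chromosomes. On chromosome 1, which held the most with 562, it was 49.1%.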

How the data were processed

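Chromatin immunoprecipitation sequencing (ChIP-seq) for H3K4me3 was analysed in 5 DMSO and 3 KDM5-C70 libraries of MM1S cells. Trim Galore 0.40, Bowtie 1.1.2, MACS2 2.1.0, HOMER 4.8 and GRCh37 are named in the submitters' processing notes; what each did, with which settings and against which input, is not given in the sources used here. Each library had 1 deposited list. For every called region the authors gave its position, the blocks inside it, a score for display, its fold enrichment, which is a ratio, and its p-value and q-value, both as -log10. The score was not used. The authors' fold enrichment describes lists, and the -log10 q-value filters them in an alternative. No read totals were used, so depth is unknown and no counting interval is given.

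Lists were merged where regions overlapped by at least 1 bp. Inner segments are the blocks longer than 1 bp. Where each library gave 1 value, groups were compared by an exact permutation test (2-sided, the smaller tail doubled, 56 splits). Limma 3.58.1 in R 4.3.3 was run on log2 values of all regions that had a value in every library, with a variance trend and without centring or a pseudocount. Calls were made at a Benjamini-Hochberg adjusted p of 0.05. The remaining steps ran in Python 3.11.15 with numpy 2.4.6, pandas 2.3.3 and, for plots, matplotlib 3.10.9. Interval steps and limma were tested on simulated data.

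The regions, measures and rules were chosen with earlier results of these data known. Named regions were the 5 with the widest DMSO gap site, the 5 with the steadiest gap centre, up to 6 open in all DMSO and filled in all KDM5-C70 libraries (0 qualified), up to 6 of the widest open in all DMSO and lacking a side in all KDM5-C70 libraries, the 4 with the most segments, and those at the limits of the rule. The 8 with wider gaps, the measures of shared gaps and the limma test of gap width were added after the data were examined. Alternatives covered stricter lists, joined regions, lists of equal length, other widths, joined gaps, longer segments, gaps inside 1 called region, other limits for split and filled, limma without the trend or with centring, a replicate block, and each library left out in turn.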

Additional observations from a re-analysis of the deposited data

Results flagged for a closer look

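In 67 sets of values from the 5 DMSO libraries, 1 library stood far from the other 4 in 8 sets. Chance alone gives this in about 5% of sets. DMSO 2 had a split share of 35.5% in the regions chosen without regard to treatment, and the other 4 had 52.0 to 54.3%. In the split regions of that kind it had no segment in 1.92%, against 0 to 0.158% in the others. Over the 5733 regions it had a mean of 1.63 segments, against 1.97 to 2.10. DMSO 1 had a median fold enrichment of 3.10 over its list, against 2.83 to 2.90.

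In single regions, DMSO 2 had a largest gap of 197 bp on chromosome 21 (33764362 to 33766809), where the others had 147 to 156 bp. On chromosome 10 (131908168 to 131910519) it had 485 bp against 129 to 190 bp. DMSO 3 had 512 bp on chromosome 9 (79791835 to 79794415) against 134 to 210 bp, and 2184 bp on chromosome 18 (107829 to 112014) against 361 to 835 bp.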

How the results depend on the processing

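The wider gap kept its direction in every alternative that gave a value. The difference of the median gap in regions chosen without regard to treatment lay between 25.8 and 37.4 bp, and that of the shared gap between 73.8 and 92.1 bp. In all of them the adjusted exact permutation p stayed above 0.05. Leaving out a library or pairing by number leaves too few arrangements to reach 0.05. With all 8 libraries the smallest possible p, 0.0357, stays under 0.05 after adjustment only when most measures of the set reach it, so passing was hardly possible there either. When lists were limited to regions with a -log10 q-value of 5 or more, only 8 regions of that width were called in all 8 libraries and 1 region met the rule, so no measure was computed. The number of regions that met the rule was 2415 with gaps under 200 bp joined and 2283 with a split in all 5 DMSO libraries. The filled share differed by -15.3 percentage points with gaps under 200 bp joined, -7.98 with segments under 200 bp left out and -6.85 with a split in at least 5 of 8 libraries, each with an exact permutation p of 0.0357 (adjusted 0.125), and by -6.34 to -9.28 when a library was left out. Limma called 11 gaps with centring, 0 with the replicate block, and 19 to 543 when a library was left out. It called 1 region by the longest segment with no variance trend, and 10 regions by called bases with the replicate block. Whether the replicate number pairs the libraries is not known, and the labels name no shared origin. Deviations in called bases of same-numbered libraries correlated at 0.186, -0.255 and 0.378 for numbers 1 to 3. Differently numbered libraries were not compared, so these values cannot decide it. With the block (numbers 1 to 3) the central gap share turned to -0.558 and the share with 1 side only to -0.342 percentage points. When a library was left out, the central gap share lay between -0.779 and 4.19, the share with 1 side only between -3.80 and 13.7, and the share with no segment between -0.267 and 1.15 percentage points. The split share then differed by 3.94 to 17.1 percentage points and the span by 82.7 to 390 bp, both in the same direction as with all libraries. The left and right segments then lay between -119 and 13 bp and between -110 and 21.6 bp. These measures had differences within the spread at the start.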
